A study of Mus musculus with 8 samples.

Results

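The genes described here are 32 genes of cholesterol and fatty acid synthesis, taken from the 21659 genes that the arrays name. They were found by their names on the probes of the array, and 45 probes carry them. The list holds 18 enzymes of sterol synthesis (24 probes), 5 regulators of these pathways (7 probes) and 9 enzymes of fatty acid synthesis, desaturation and elongation (14 probes). The cells are satellite cells, the stem cells of skeletal muscle, sorted by flow cytometry for the integrin alpha 7 protein after removal of cells with CD31, CD45, CD11b or Sca1. The injured group holds 4 samples from muscle taken 3 days after cardiotoxin, a toxin of cobra venom used to kill muscle fibres, and the basal group holds 4 samples from muscle without this injury. All 8 samples are labelled as biological replicates from male C57BL/6 mice aged 3 months, and the labels give no other genotype or treatment. Nothing in the labels says whether animals were pooled or whether every sample came from a separate animal.

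Cells build cholesterol from acetyl-CoA through mevalonate, squalene and lanosterol, and the mevalonate route also gives the prenyl groups that anchor many signalling proteins to membranes. Transcription of most of these enzymes is driven by the SREBP proteins, which Scap carries to the Golgi for activation when sterols are low and which the Insig proteins hold back in the endoplasmic reticulum when sterols are high. Fatty acids are built from the same acetyl-CoA pool, and the desaturases and elongases turn them into the acyl chains of membrane lipids. Dividing cells need both products for new membrane.

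Each sample was put on 1 array. Signals are given as log2 of the processed probe signal minus the 75th percentile of that array, called the log2 signal here, so that 0 is the 75th percentile and levels of different probes cannot be compared. Differences are injured minus basal, with moderated standard errors (SE) and n = 4 arrays per group. A gene was called higher or lower where limma's adjusted p, by Benjamini-Hochberg over 13604 genes tested, was below 0.05. Between 50.1% and 56.7% of the spots of an array were well above background and no spot was saturated. The 4 injured arrays lay on 1 slide with 1 scan time and the 4 basal arrays on another, so slide and injury cannot be told apart. These are bulk samples, in which a change in the kinds of cells and a change of RNA per cell cannot be told apart.

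Some arrays stood apart from their group or their label. Xist, the RNA of the inactive X chromosome, had log2 signals of 1.72, 6.37, 6.55 and 6.57 on injured 1 to 4, against 3.85, 2.15, -1.12 and -4.97 on basal 1 to 4. The Y-linked genes Ddx3y, Eif2s3y, Kdm5d and Uty were above background on injured 1 and on none of injured 2 to 4, although all mice are labelled male. Ddx3y was also above background on basal 1 to 4 (-0.76, -0.25, -0.07 and -0.89). Its signal thus differed along with injury except on injured 1, and the part of sex in the results was not tested. Basal 1 and basal 2 carried more signal of endothelial genes than basal 3 and basal 4 (Pecam1 3.20 and 2.87 against -2.20 and -3.22) and more signal of cell cycle genes (Ccnb1 1.60 and 0.19 against -3.39 and -0.55). Counts of calls are given with and without these arrays.

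The label of the cells was checked with marker genes. Of 10 satellite cell markers, 9 were tested and only Myf5 was above background on no array. Their summed signal, in multiples of each array's 75th percentile, was 138 to 167 on injured arrays and 265 to 355 on basal arrays. Of these markers, 3 were called higher on injured arrays (Itga7, the sort marker, by 1.13, Myod1 by 0.77 and Itgb1 by 0.74) and 4 lower (Pax7, Sdc4, Cxcr4 and Chodl). The sum is led by the brightest probe, and Chodl alone held 26.5% to 46.1% of it on basal arrays. Cycling cell markers were higher on injured arrays for 6 of 6 genes, with a summed signal of 30.2 to 43.2 on injured arrays and 0.79 to 10.0 on basal arrays. Markers of fibro-adipogenic progenitors summed to 6.35 to 9.14 on injured arrays and 55.5 to 84.4 on basal arrays, with Pdgfra above background on none, and Schwann cell markers to 6.04 to 8.42 against 46.1 to 77.5. Col3a1 held 88.9% to 95.1% of the progenitor sum on injured arrays and 58.1% to 74.7% on basal arrays. Pmp22 held 72.1% to 77.3% and 60.7% to 94.6% of the Schwann cell sum. Ly6a was not tested and Mbp was not called, and the other genes tested in these 2 lists were called lower. Adipocyte markers, which bear on fatty acid genes, summed to 2.99 to 4.29 on injured arrays and 5.42 to 35.1 on basal arrays. Of these, Lep was above background on no array, and Adipoq, Cidec and Retn did not pass the test (0.13, 0.68 and -0.01). Plin1 was higher on injured arrays (0.61, limma, adjusted p = 0.0491), and Lipe and Fabp4 were lower there. Fabp4 held 12.6% to 88.4% of the adipocyte sum on basal arrays, and its injured and basal arrays overlapped. Endothelial markers summed to 8.49 to 10.5 against 6.57 to 26.1, leukocyte and macrophage markers to 492 to 584 against 473 to 540, and muscle fibre markers to 6.90 to 23.6 against 3.70 to 7.85. The leukocyte sum rested on 1 probe, that of Itgam, which held 92.5% to 93.1% of it on injured arrays and 90.1% to 91.7% on basal arrays. Kdr held 94.7% to 97.9% of the endothelial sum on injured arrays, and Acta1 96.4% to 97.5% of the fibre sum there. Itgam, Pecam1, Ptprc and Ly6a are the genes of CD11b, CD31, CD45 and Sca1, the proteins of the cells removed in the sort. Itgam and Ptprc were above background on 4 injured and 4 basal arrays, Pecam1 on 4 and 3, and Ly6a on 2 and 2. Whether this RNA came from cells with those proteins was not tested. The part of other cell types in the results that follow was not tested.

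Of the 32 synthesis genes, 31 were tested, 9 were called higher on injured arrays, 5 were called lower and 17 passed in neither direction. Over all genes tested, 35.4% were called higher, 24.7% lower and 60.1% in either direction, so the shares called in this list are not above the background. The median log2 difference of the 31 genes was 0.21, beside 0.17 for all genes tested. The 9 higher and 5 lower genes were also those whose injured and basal arrays did not overlap, which held for 57.2% of all genes tested. By role, sterol enzymes had 3 higher and 1 lower of 17 tested, regulators 1 higher and 2 lower of 5, and fatty acid enzymes 5 higher and 2 lower of 9. Their median differences were 0.21, -0.23 and 0.38. The count of fatty acid enzymes called higher was less steady, at 3 with quantile normalization and 2 with the replicate number as a block. Acaca and Fads1 dropped out in both.

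**Figure D1:**
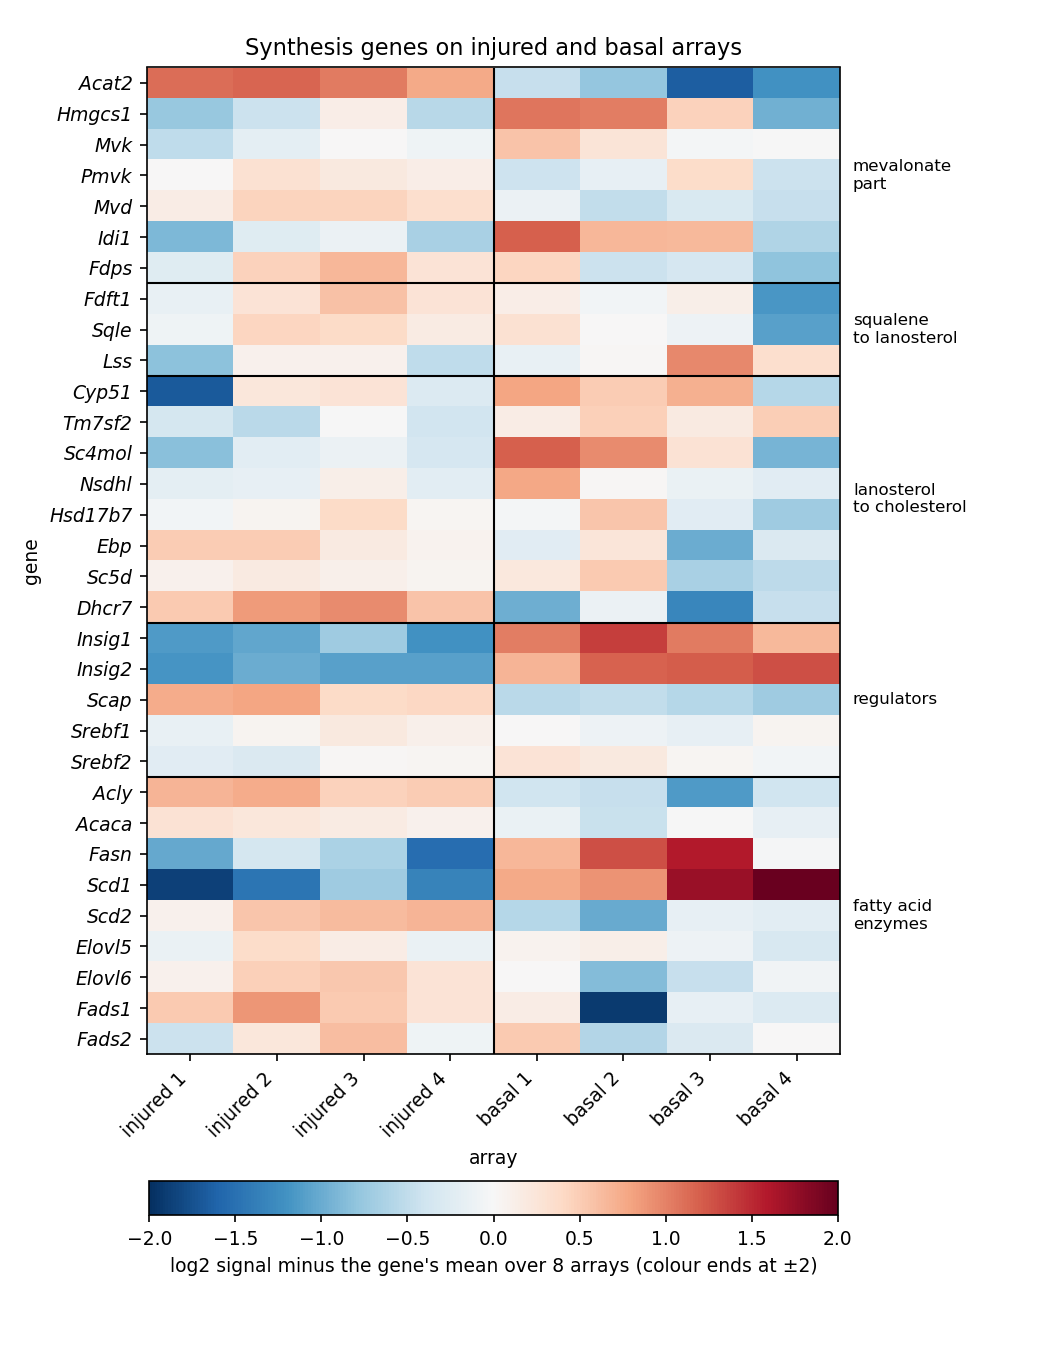
Each row is 1 synthesis gene and each column 1 array, injured arrays on the left and basal arrays on the right; colour is the log2 signal minus the mean of that gene over the 8 arrays, and black lines separate the roles named at the right. Insig1, Insig2, Fasn and Scd1 are low on the injured arrays, Acat2, Scap and Acly are high there, and most sterol enzymes in between differ as much among arrays of 1 group as between groups.

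The first part of the sterol route, from acetyl-CoA to farnesyl diphosphate, held the gene with the greatest rise on the list. Acat2, the cytosolic thiolase that joins 2 acetyl-CoA units, had log2 signals of 7.86, 7.91, 7.79 and 7.51 on injured arrays, against 6.28, 5.97, 5.10 and 5.54 on basal arrays. Every injured array lay above every basal array, and the difference was 2.05 ± 0.25, a 4.13-fold rise (limma, adjusted p = 2.14e-04). Mvd, the decarboxylase that makes isopentenyl diphosphate, had 0.14, 0.44, 0.44 and 0.32 on injured arrays, against -0.12, -0.51, -0.32 and -0.47 on basal arrays. It rose by 0.69 ± 0.14 (limma, adjusted p = 0.00267), again with no overlap between the groups.

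Hmgcs1 and Idi1 went the other way in value and did not pass the test. Hmgcs1, the synthase that makes HMG-CoA, had 1.11, 1.44, 1.99 and 1.31 on injured arrays, against 2.94, 2.88, 2.33 and 0.90 on basal arrays. Its first 3 basal values lay above all injured ones and basal 4 lay below them, for a difference of -0.80 ± 0.44 (limma, adjusted p = 0.144). Idi1, the isomerase of the isoprenoid units, had 0.20, 0.86, 0.99 and 0.46 on injured arrays, against 2.29, 1.77, 1.75 and 0.50 on basal arrays. Here basal 4 fell among the injured arrays, and the difference of -0.95 ± 0.37 just missed the threshold (limma, adjusted p = 0.0503). Without basal 4 both were called lower, Hmgcs1 by -1.26 (adjusted p = 0.00402) and Idi1 by -1.31 (adjusted p = 0.00274).

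The other 3 enzymes of this part did not pass. Mvk, mevalonate kinase, differed by -0.39 ± 0.18 (limma, adjusted p = 0.0964). Fdps, which makes farnesyl diphosphate, had 1.95, 2.65, 2.85 and 2.47 on injured arrays, against 2.62, 1.76, 1.85 and 1.39 on basal arrays. Basal 1 alone reached the injured range, and the difference of 0.57 ± 0.29 (limma, adjusted p = 0.115) became 0.81 without that array, when it was called higher (adjusted p = 0.0173). Pmvk, phosphomevalonate kinase, differed by 0.32 ± 0.19 on its brightest probe (limma, adjusted p = 0.182) and was called higher on it without basal 3 (0.50, adjusted p = 0.0166). Its other probe was called higher with all arrays (0.94 ± 0.14, limma among 31315 probes, adjusted p = 6.88e-04), with 2.10, 2.22, 2.09 and 2.20 on injured arrays, against 1.29, 0.91, 1.44 and 1.20 on basal arrays.

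**Figure D2:**
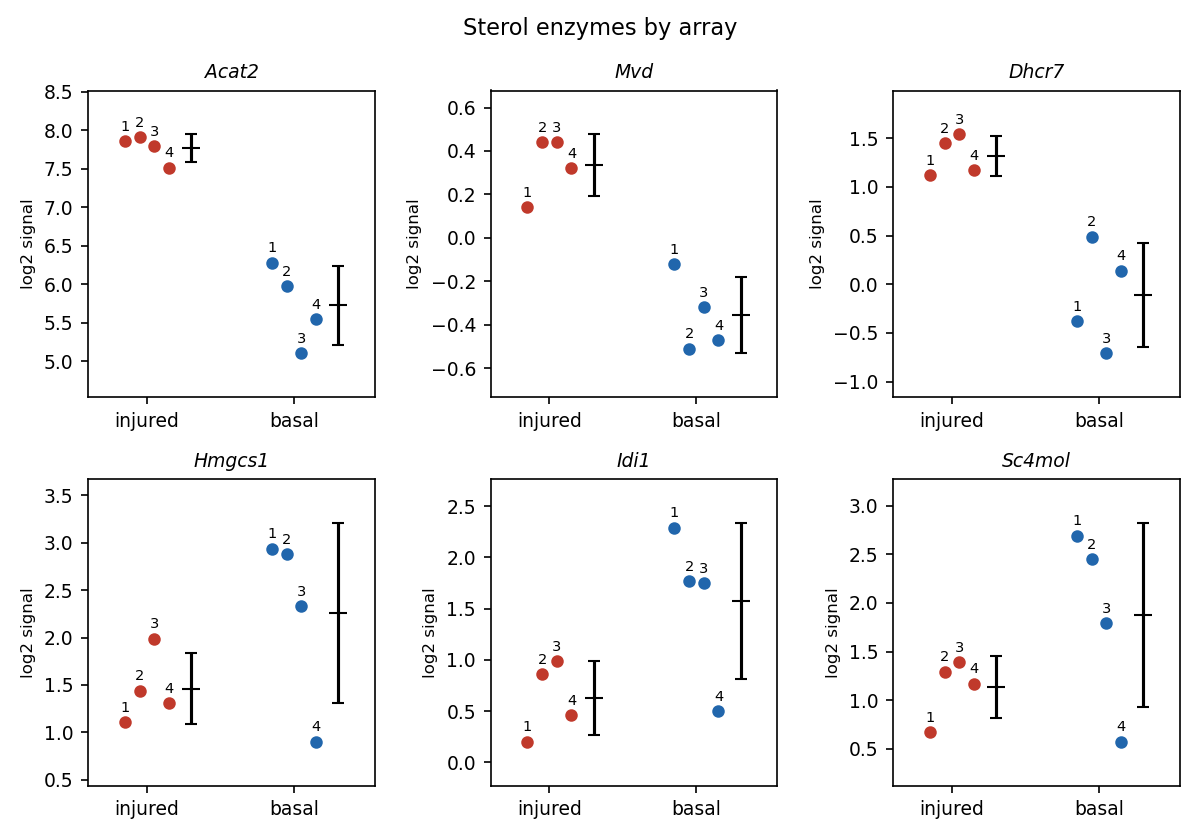
Log2 signal of 6 sterol enzymes, injured arrays in red on the left and basal arrays in blue on the right of each panel, with the replicate number above each point and the mean ± SD (n = 4) in black. Acat2, Mvd and Dhcr7 separate the groups, whereas basal 4 is the lowest basal array for Hmgcs1, Idi1 and Sc4mol and falls within or below the injured arrays.

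Between squalene and lanosterol no enzyme was called. Sqle, squalene epoxidase, had 1.06, 1.58, 1.53 and 1.31 on injured arrays, against 1.45, 1.16, 1.05 and 0.06 on basal arrays, a difference of 0.44 ± 0.29 (limma, adjusted p = 0.214). Lss, lanosterol synthase, was not tested, since its probe was above background on 0 injured and 2 basal arrays, with log2 signals of -3.87, -2.97, -2.97 and -3.56 against -3.19, -3.02, -2.09 and -2.72. Fdft1, squalene synthase, gave opposite results on its 2 probes. The brightest lies on the minus strand across an intron, at chr14:63765750-63769990 (mm9), and its sequence shows which stretch the value used for the gene comes from:
Fdft1 brightest probe: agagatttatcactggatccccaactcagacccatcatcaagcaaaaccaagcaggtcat
On the brightest probe the log2 signal was 3.48, 3.90, 4.21 and 3.91 on injured arrays, against 3.76, 3.58, 3.75 and 2.46 on basal arrays, a difference of 0.49 ± 0.31 (limma, adjusted p = 0.197). On the other it was -2.07, -2.37, -1.37 and -1.60 on injured arrays, against -0.46, 0.34, 1.00 and 0.78 on basal arrays. The second probe separated the groups, with a difference of -2.27 ± 0.35 (limma among 31315 probes, adjusted p = 7.28e-04). Fdft1 overlaps the gene of cathepsin B, Ctsb, in the reference annotation by 774 bases, and no direction is given for Fdft1.

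From lanosterol to cholesterol, 1 of 8 enzymes was called higher and 1 lower. Dhcr7, the reductase that makes cholesterol from its dehydro precursor, had 1.12, 1.45, 1.54 and 1.17 on injured arrays, against -0.38, 0.49, -0.71 and 0.14 on basal arrays. The groups did not overlap, and the gene rose by 1.43 ± 0.26, which is 2.70-fold (limma, adjusted p = 0.0016). Tm7sf2, a sterol C14 reductase, had -0.60, -0.79, -0.26 and -0.63 on injured arrays, against -0.09, 0.23, -0.07 and 0.25 on basal arrays. It fell by 0.65 on the log2 scale (SE 0.16, limma, adjusted p = 0.00686). Its other probe was not called, at -0.75 (adjusted p = 0.373), and the authors' deposited table gave 0.09.

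Sc4mol, now named Msmo1, the methyl oxidase that removes the C4 methyl groups, followed Hmgcs1 and Idi1 in its order of arrays. Its log2 signals were 0.67, 1.29, 1.39 and 1.17 on injured arrays, against 2.69, 2.45, 1.79 and 0.57 on basal arrays. With all arrays the difference was -0.74 ± 0.43 (limma, adjusted p = 0.165), and without basal 4 it was -1.18 and called lower (adjusted p = 0.00661). The remaining 5 did not pass. Ebp, the sterol isomerase, differed by 0.64 ± 0.26 (limma, adjusted p = 0.0576) and was called higher without basal 2 (0.82, adjusted p = 0.0169). Cyp51, the lanosterol demethylase, differed by -0.72 ± 0.48 with 2 injured and 3 basal arrays above background. Nsdhl and Hsd17b7, which act on the C4 position, differed by -0.22 ± 0.23 and 0.21 ± 0.25, and Sc5d, the C5 desaturase, by 0.21 ± 0.26.

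**Figure D3:**
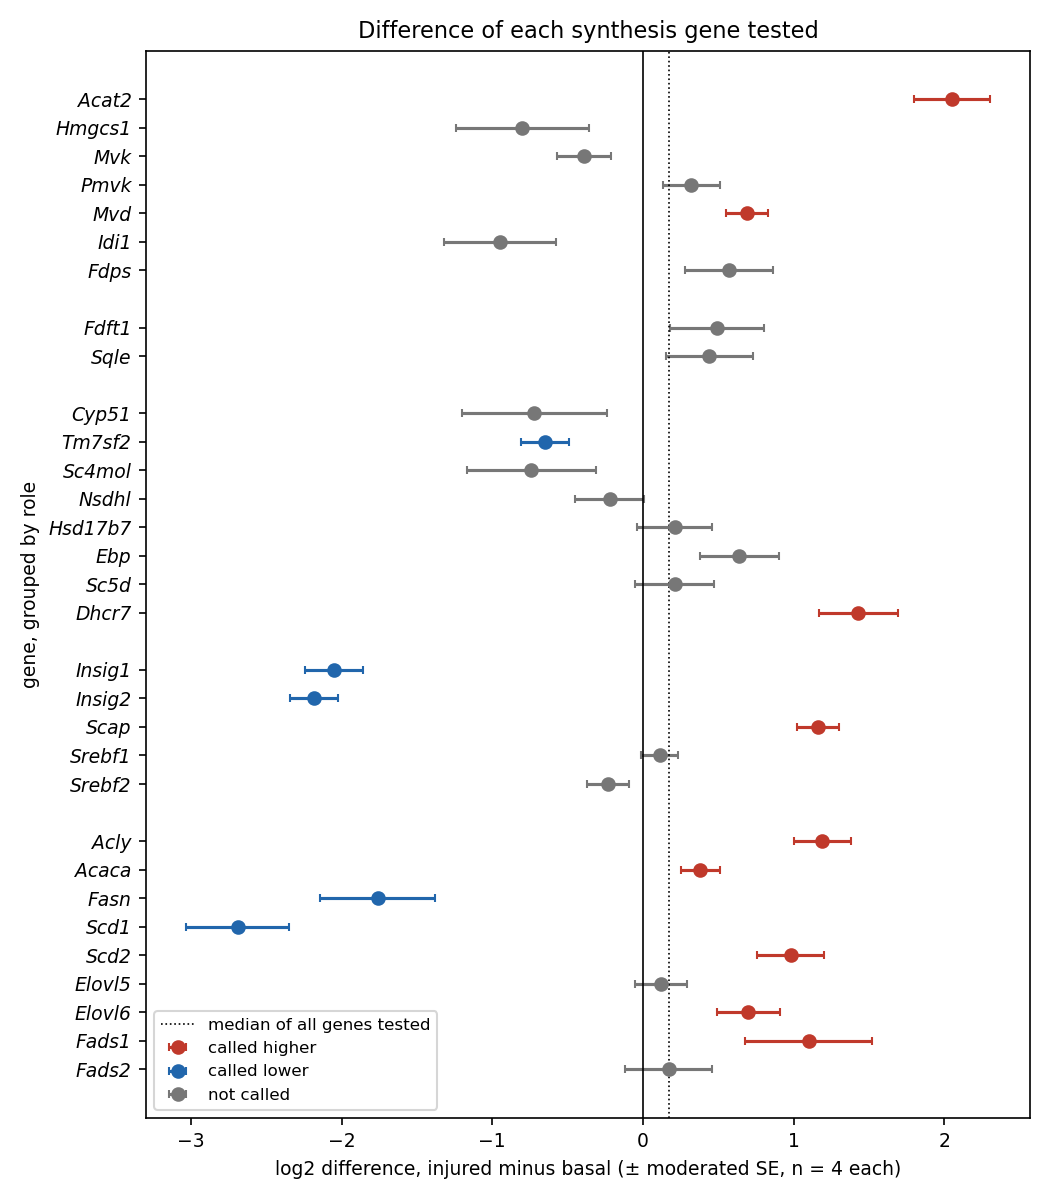
Log2 difference, injured minus basal, with its moderated SE (n = 4 each) for the 31 synthesis genes tested, from the first sterol enzyme at the top to the last fatty acid enzyme at the bottom; red genes were called higher, blue genes lower and grey genes were not called, and the dotted line is the median of all genes tested at 0.17. The largest falls are Scd1, Insig2, Insig1 and Fasn, and the largest rise is Acat2.

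The sterol enzymes shared an order of arrays within each group. Among the 17 tested, injured 1 was the lowest injured array for 12 (70.6%), beside 20.6% of all genes tested, and injured 3 was the highest for 11 (64.7%), beside 24.2%. Among basal arrays, basal 4 was the lowest for 10 (58.8%), beside 25.5% of all genes, and basal 1 the highest for 11 (64.7%), beside 32.4%. Of the 9 fatty acid enzymes, injured 1 was the lowest injured array for 5 (55.6%) and injured 3 the highest for 3 (33.3%). Basal 4 was the lowest basal array for 2 of them (22.2%) and basal 1 the highest for 3 (33.3%). The median deviation of the sterol enzymes from the mean of each gene over the 8 arrays was -0.15, 0.23, 0.19 and 0.05 on injured 1 to 4 and 0.22, 0.24, -0.10 and -0.58 on basal 1 to 4. Basal 4 was thus the lowest of the 8 arrays, and basal 2 was the highest by a narrow margin over injured 2 and basal 1. The fatty acid enzymes had 0.09, 0.36, 0.47 and 0.08 on injured arrays and 0.08, -0.46, -0.16 and -0.17 on basal arrays, with basal 2 lowest. Cycling cell markers had 1.89, 2.10, 1.87 and 1.49 on injured arrays and -0.17, -1.13, -3.85 and -2.34 on basal arrays. Injured 1 was also the injured array with Y-linked signal, and basal 1 and basal 2 those with more endothelial signal; the part of either was not tested. Genes of 1 pathway are not independent, and the arrays share their scaling.

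Which sterol enzymes were called therefore depended on the basal arrays, though not on these alone. Without basal 4, 3 were called higher and 4 lower, the 3 that joined being Hmgcs1, Idi1 and Sc4mol. Without basal 1 and basal 2 together, 8 were called higher and 1 lower. Those that joined were Fdps (0.86), Sqle (0.82), Hsd17b7 (0.57), Ebp (0.96) and Sc5d (0.69), and the median difference of the sterol enzymes was 0.57. Acat2, Mvd and Dhcr7 were called higher and Tm7sf2 lower in all 3 fits. Scaling and fit also moved calls with all 8 arrays kept. With quantile normalization Idi1 (-1.05, limma, adjusted p = 0.0345) and Mvk (-0.50, adjusted p = 0.0377) were called lower. With array weights Ebp was called higher (0.69, limma, adjusted p = 0.0352). Over 22 alternatives, Idi1 was called lower in 8 and Mvk in 2, each turning sign in 1, and Ebp was called higher in 8.

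**Figure D4:**
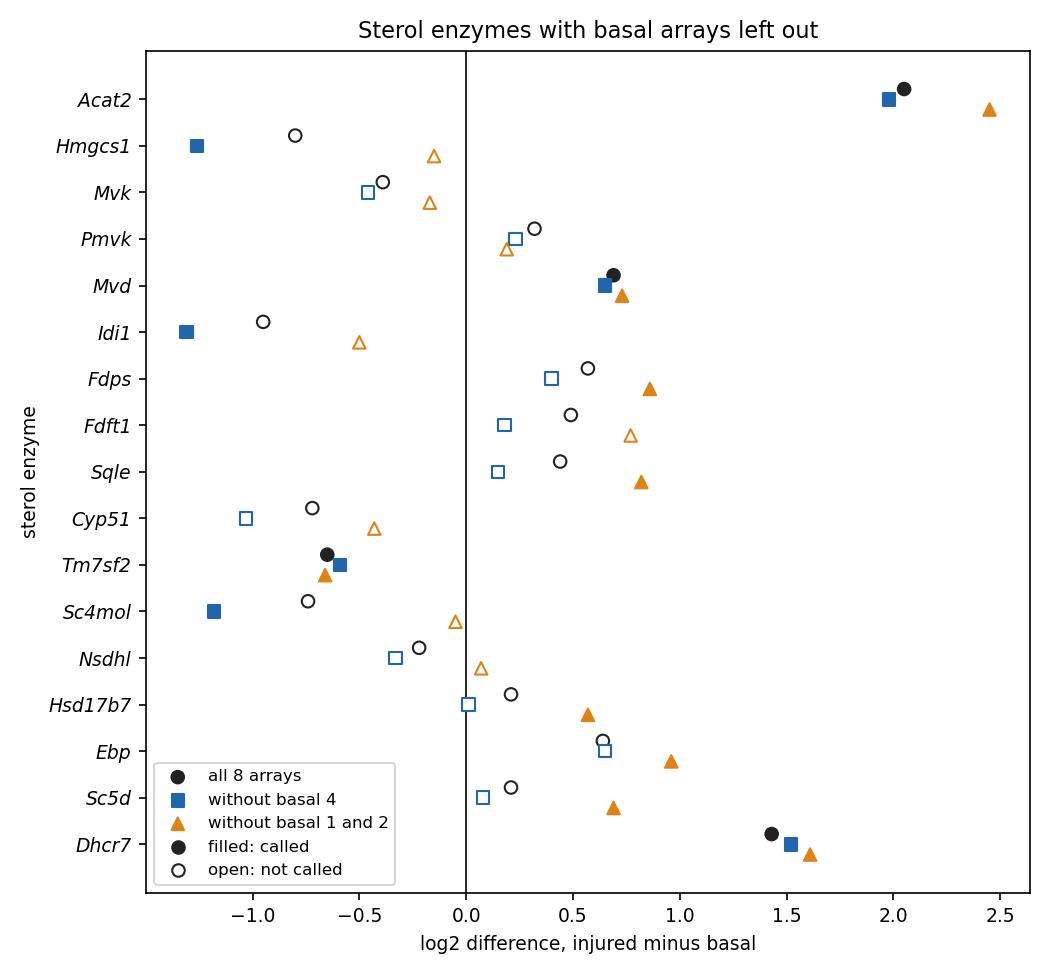
Log2 difference, injured minus basal, of the 17 sterol enzymes tested, with all 8 arrays (circles), without basal 4 (squares) and without basal 1 and 2 (triangles); filled symbols were called and open symbols were not. Leaving out basal 4 moves Hmgcs1, Idi1 and Sc4mol further below 0, and leaving out basal 1 and 2 moves 5 enzymes to a called rise.

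The promoters of these enzymes were read from the RefSeq table of mouse promoters (GRCm38.p6), which held 34 promoters of 26 of the 32 genes. The 250 bases before each start were searched on both strands for 3 motifs that could overlap each other freely: TCACNCCAC, a sterol regulatory element that SREBP binds, CCAAT, bound by NF-Y, and GGGCGG, bound by Sp1. The sterol element was found for 1 of 26 genes (3.85%), Hmgcs1, beside 1.22% of all 27025 genes in the table and 1.27% of the genes tested. CCAAT was found for 14 of 15 sterol enzymes (93.3%), 4 of 5 regulators and 2 of 6 fatty acid enzymes (33.3%), beside 37.5% of all genes and 39.8% of the genes tested. GGGCGG was found for 14 of 15 sterol enzymes (93.3%), 5 of 5 regulators and 2 of 6 fatty acid enzymes, beside 35.4% of all genes and 59.1% of the genes tested. A gene was counted if any of its promoters held the motif, and the 5 regulators have 10 promoters. Per promoter, CCAAT was found for 77.8% of sterol enzymes and 50% of regulators, beside 34.8% for genes tested. GGGCGG was found for 83.3% and 70%, beside 53.3%. None of the sterol enzymes called on all arrays held the sterol element in this window. The stretches of the 3 enzymes that shared their order of arrays are shown, chosen after their values were seen, with every match to the 3 motifs in capitals and the start of the gene at the right end. They are chr13:119690101-119690350 on the plus strand for Hmgcs1, chr13:8885356-8885605 on the plus strand for Idi1 and chr8:64733579-64733828 on the minus strand for Sc4mol.
Hmgcs1: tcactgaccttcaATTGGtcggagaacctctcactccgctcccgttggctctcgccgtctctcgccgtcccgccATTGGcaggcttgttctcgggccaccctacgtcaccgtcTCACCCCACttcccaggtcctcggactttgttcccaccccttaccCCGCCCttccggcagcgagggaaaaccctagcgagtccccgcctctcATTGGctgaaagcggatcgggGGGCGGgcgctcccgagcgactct
Idi1: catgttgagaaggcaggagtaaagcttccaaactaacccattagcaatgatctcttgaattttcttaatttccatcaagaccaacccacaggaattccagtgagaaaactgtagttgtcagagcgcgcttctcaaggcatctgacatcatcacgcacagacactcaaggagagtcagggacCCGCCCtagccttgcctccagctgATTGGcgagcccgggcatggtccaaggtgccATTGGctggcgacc
Sc4mol: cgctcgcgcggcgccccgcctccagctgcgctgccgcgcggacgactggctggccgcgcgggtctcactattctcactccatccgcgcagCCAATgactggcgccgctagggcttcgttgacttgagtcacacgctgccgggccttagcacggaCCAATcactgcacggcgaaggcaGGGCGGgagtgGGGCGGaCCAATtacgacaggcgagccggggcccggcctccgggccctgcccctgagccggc
In Hmgcs1 the sterol element begins 137 bases before the start, and CCAAT lies at 237, 176 and 45 bases before it, each time on the opposite strand. Idi1 has CCAAT at 45 and 14 bases on the opposite strand and 1 GC box, and Sc4mol has CCAAT at 160, 96 and 55 bases and 2 GC boxes. The matches describe the letters of these windows only.

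The 5 regulators split into Insig genes that fell, the carrier Scap that rose and transcription factors that were not called. Insig1, one of the proteins that hold the SREBP carrier in the endoplasmic reticulum, had 0.14, 0.22, 0.56 and 0.05 on injured arrays, against 2.29, 2.65, 2.31 and 1.91 on basal arrays. All injured arrays lay more than 1 log2 unit below all basal arrays, and Insig1 fell by 2.05 on the log2 scale (SE 0.19, limma, adjusted p = 5.36e-05), which is 4.14-fold. Insig2, its relative with the same role, had -0.07, 0.12, 0.03 and 0.03 on injured arrays, against 1.79, 2.30, 2.33 and 2.40 on basal arrays. It fell by 2.18 on the log2 scale (SE 0.16, limma, adjusted p = 1.93e-05), and its other probe gave -2.05 (adjusted p = 5.93e-05).

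Scap, the carrier that takes SREBP to the Golgi and that the Insig proteins bind, had 0.93, 0.98, 0.57 and 0.61 on injured arrays, against -0.34, -0.30, -0.38 and -0.52 on basal arrays. The groups were well apart, and Scap rose by 1.16 ± 0.14, which is 2.23-fold (limma, adjusted p = 2.09e-04). Neither transcription factor passed the test with the scaling used here. Srebf1, whose protein mainly drives fatty acid genes, differed by 0.11 ± 0.12 (limma, adjusted p = 0.481), with -0.18 to 0.17 on injured arrays and -0.19 to 0.02 on basal arrays. Srebf2, whose protein mainly drives sterol genes, differed by -0.23 ± 0.14 (limma, adjusted p = 0.172), and by 0.01 on its other probe. It was called lower with quantile normalization (-0.44, adjusted p = 0.0204) and with normexp and quantile normalization (-0.36, adjusted p = 0.011). Activity of the proteins was not measured.

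Among the fatty acid enzymes, the one that supplies acetyl-CoA rose and the synthase fell. Acly, ATP citrate lyase, which makes cytosolic acetyl-CoA, had 1.25, 1.32, 1.04 and 1.08 on injured arrays, against 0.17, 0.12, -0.56 and 0.18 on basal arrays. It rose by 1.19 ± 0.19 (limma, adjusted p = 8.04e-04), with basal 3 below the other basal arrays, and its other probe gave 0.96 (adjusted p = 0.00279). Fasn, the fatty acid synthase, had -3.84, -3.17, -3.46 and -4.35 on injured arrays, where its probe was not well above background on any, against -2.15, -1.53, -1.23 and -2.84 on basal arrays, where it was on all 4. It was called lower on injured arrays (-1.76 ± 0.38, limma, adjusted p = 0.00393), but the size of its fall is uncertain. Setting the basal mean against the lowest signal that counts as above background, or the probe's own signal where higher, gave 2.33-fold. That value holds for the scaling used here and is not a firm lower bound. With normexp and quantile normalization the difference was -0.36 and Fasn was not called (limma, adjusted p = 0.0513).

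Acaca, acetyl-CoA carboxylase, which makes malonyl-CoA, was called higher on its brightest probe, with 3.99, 3.94, 3.88 and 3.79 on injured arrays, against 3.57, 3.26, 3.70 and 3.54 on basal arrays (0.38 ± 0.13, limma, adjusted p = 0.0318). The groups were separate by a narrow margin. Of its 3 other probes, 2 at the same end, shifted by 1 base, were not called (0.31 and 0.24), and 1 near the start of the gene was called lower. That probe had -1.06, -0.80, -0.70 and -0.90 on injured arrays, against -0.47, -0.47, -0.40 and -0.48 on basal arrays (-0.41 ± 0.12, limma among 31315 probes, adjusted p = 0.0187). The 2 probes with opposite calls lie on the plus strand at chr11:84211638-84211697 and chr11:84009021-84009080 (mm9) and are:
Acaca brightest probe: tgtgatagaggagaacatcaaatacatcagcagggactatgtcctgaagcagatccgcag
Acaca probe near the start: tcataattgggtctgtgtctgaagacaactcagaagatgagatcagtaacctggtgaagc
The call of Acaca was lost without basal 2 (0.30, adjusted p = 0.0728), injured 1 (adjusted p = 0.0886), injured 2 (adjusted p = 0.078) or injured 3 (adjusted p = 0.067), and no direction is given for the gene as a whole.

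The desaturases Scd1 and Scd2 went in opposite directions. Scd1, which puts the first double bond into palmitate and stearate, had -0.75, -0.34, 0.40 and -0.22 on injured arrays, against 1.88, 2.02, 2.85 and 3.10 on basal arrays. All injured arrays were below all basal arrays, and Scd1 fell by 2.69 on the log2 scale (SE 0.34, limma, adjusted p = 2.5e-04), 6.46-fold and the largest difference on the list. Scd2, a relative with the same activity, had 1.07, 1.53, 1.61 and 1.66 on injured arrays, against 0.41, -0.03, 0.82 and 0.77 on basal arrays. It rose by 0.98 ± 0.22, which is 1.97-fold (limma, adjusted p = 0.00526). The mouse genome holds 4 Scd genes side by side on chromosome 19. Scd3 fell on its brightest probe (-1.71 ± 0.22, limma, adjusted p = 2.64e-04). That probe had 0.78, 0.49, 0.46 and 0.50 on injured arrays, against 1.72, 2.18, 2.74 and 2.43 on basal arrays. Another Scd3 probe, above background on 4 injured and 4 basal arrays, differed by -2.08 (SE 0.25). A further Scd3 probe was above background on 1 injured and 0 basal arrays and was not tested. Scd4 was not called (-0.03). The genes are near copies, and whether a probe takes up signal of a relative was not tested. The first 30 bases of the Scd1 probe (chr19:44469387-44469446, mm9) and of the Scd2 probe (chr19:44381024-44381083) are shown because these 2 genes moved apart:
Scd1 probe: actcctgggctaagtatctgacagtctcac
Scd2 probe: acatttggggatcctctgcagaggagtatt
Of the adipocyte markers, Lipe and Fabp4 were lower on injured arrays along with Scd1 and Fasn, and Plin1 was higher there. Fabp4 was highest on basal 1 (4.95) and basal 2 (4.82), the 2 basal arrays with the lower Scd1 and with more endothelial signal. On basal 3 and basal 4 it had 0.04 and -0.55, against -5.29, -0.47, -5.06 and 0.04 on injured arrays. The part of these markers in the result was not tested.

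**Figure D5:**
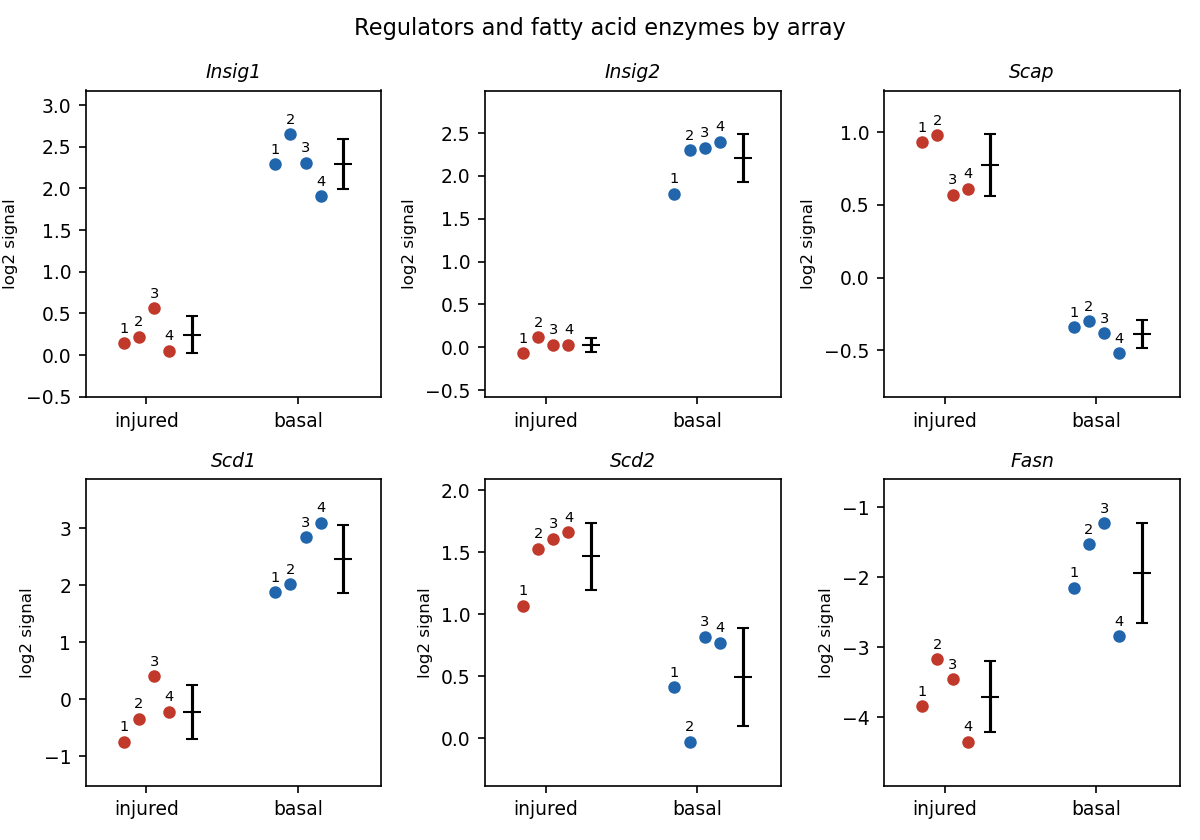
Log2 signal of 3 regulators (top row) and 3 fatty acid enzymes (bottom row), injured arrays in red on the left and basal arrays in blue on the right of each panel, with the replicate number above each point and the mean ± SD (n = 4) in black. In each of the 6 panels the injured and basal arrays do not overlap, with Insig1, Insig2, Scd1 and Fasn lower and Scap and Scd2 higher on injured arrays.

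Elongases and front-end desaturases, which lengthen chains and add further double bonds, gave 2 calls that needed single arrays. Elovl6, which elongates palmitate, had 1.53, 1.92, 1.98 and 1.71 on injured arrays, against 1.45, 0.57, 0.97 and 1.37 on basal arrays. It rose by 0.70 ± 0.21 (limma, adjusted p = 0.0204), a call lost without injured 2 (0.65, adjusted p = 0.0555) or injured 3 (0.63, adjusted p = 0.0584). Fads1, the delta-5 desaturase, had 0.99, 1.35, 0.98 and 0.73 on injured arrays, against 0.61, -1.46, 0.30 and 0.19 on basal arrays. Its difference of 1.10 ± 0.42 passed narrowly (limma, adjusted p = 0.0462), with basal 2 far below the others. The call was lost without any 1 of injured 1 to 4, basal 3 or basal 4 (adjusted p 0.0501 to 0.11), where the difference was 0.99 to 1.23. Without basal 2 the difference was 0.65 and still called (adjusted p = 0.0194). Elovl5, an elongase of polyunsaturated chains, differed by 0.12 ± 0.17 and Fads2, the delta-6 desaturase, by 0.17 ± 0.29; neither passed.

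Genes around these pathways, 67 in 5 lists, gave 19 higher and 18 lower of 60 tested, beside 35.4% higher and 24.7% lower over all genes tested. In the prenyl branch, 4 of 11 rose and 0 fell, among them Cox10, which makes heme O (1.46 ± 0.32, limma, adjusted p = 0.00404), and Rabggtb, a subunit that prenylates Rab proteins (1.31 ± 0.22). Of the genes of sterol sensing, esters and export, 4 rose and 5 fell of 14 tested. Tmem97, a sterol-responsive membrane protein, had 2.35, 2.35, 2.33 and 2.13 on injured arrays, against -0.31, -0.40, -0.01 and -0.38 on basal arrays (2.56 ± 0.13, limma, adjusted p = 4.73e-06). Nr1h3, the sterol receptor LXR alpha, was above background on no injured array and was called lower there (limma, adjusted p = 4.01e-05). By the same estimate as for Fasn its fall was 11.1-fold with the scaling used here, and its size is uncertain. Mylip, a ubiquitin ligase under the control of LXR alpha, was called lower (limma, adjusted p = 3.86e-04). The Mylip probe was above background on 1 injured array only, so the size of its fall is uncertain.

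Among genes that supply acetyl-CoA and NADPH, 3 rose and 1 fell of 6 tested. The NADPH makers Me1 (3.67 ± 0.60, limma, adjusted p = 9.52e-04) and Pgd (2.48 ± 0.28, adjusted p = 1.62e-04) rose, and Acss2, which makes acetyl-CoA from acetate, fell by 1.90 on the log2 scale (SE 0.27, adjusted p = 4.61e-04). Of 12 other genes of elongation and desaturation, 4 rose and 5 fell. Hsd17b12, a reductase of the elongation cycle, rose by 1.79 ± 0.27 and Fads3, a desaturase, by 1.04 ± 0.21, while Cyb5a, the cytochrome that passes electrons to desaturases, fell by 1.33 on the log2 scale. In glycerolipid synthesis 4 rose and 7 fell of 17. Dgat2, which makes triglyceride, rose by 2.15 ± 0.57 and Agpat3, an acyltransferase, by 0.94 ± 0.19. Pcyt1a and Cept1, enzymes of phosphatidylcholine synthesis, fell by 1.42 and 0.98 on the log2 scale. The Dgat2 probe was above background on 2 basal arrays only and the Pcyt1a probe on 2 injured arrays only. The sizes of these 2 differences are therefore uncertain. Without basal 1 and basal 2, each neighbouring gene named here was still called in the same direction, with Me1 at 4.85, Dgat2 at 3.16 and Cox10 at 2.02. With injured 1 as the only injured array, Tmem97, Nr1h3, Pgd and Acss2 were still called, and the others were not, Me1 at 3.30 (adjusted p = 0.114) and Dgat2 at 2.65 (adjusted p = 0.129) among them. Calls lost in the authors' deposited table were those of Rabggtb (0.15), Mylip (-0.42), Cyb5a (-0.05), Nr1h3 (-1.40), Dgat2 (1.46), Agpat3 (0.80) and Cept1 (-0.51), and there Cox10 and Pcyt1a changed sign without a call.

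Across the 14 synthesis genes called on all arrays, the sign of the difference was the same with injured 1 as the only injured array, where the lone array was taken to vary like the basal arrays. In that fit 5 of the 14 were still called, Acat2 and Scap higher and Insig1, Insig2 and Scd1 lower, while over all genes 756 were called higher and 992 lower. Without injured 1, 12 of the 14 were still called, Acaca and Fads1 being lost. Without basal 1 and basal 2, 13 were still called, all but Acaca. In the reference annotation Acat2 overlaps a pseudogene, Mvd, Insig1 and Elovl6 overlap long non-coding RNAs, and Tm7sf2 and Acaca overlap the coding genes Vps51 and Tada2a. Acaca also overlaps the coding gene Gm11437 by 19116 bases; whether such overlaps reach the probes was not tested.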

How the data were processed

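Probe signals came from 8 scanner files, 1 per sample, each in intensity units. Per the file headers, these intensity values were made by the authors with scanner software (Agilent Feature Extraction, version 10.7.3.1) that subtracted background and evened out spatial trends, without normalization between arrays. A deposited set of normalized log2 values was used as an alternative only. Limma is named in the labels for it, without version or steps, and its log2 scale was read from the values. Its columns correlated with their own scanner files at r = 0.70 to 0.93, and their medians were 8.05 to 8.16. All columns were matched to samples by title.

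The log2 of the processed signal minus the 75th percentile of the 59305 non-control spots of each array was used. The 1119 spots marked as outliers were left out, and spots of a probe were averaged (55681 probes). Probes were named through the reference annotation by accession (26300), current symbol (2044) or synonym (355), or by the array's name (458). For each of 21659 genes the probe with the highest mean was taken. It had to be marked as well above background on 3 or 4 arrays of either group, which left 13604 genes to test, with limma 3.58.1 in R 4.3.3, two-sided, with 6 residual and 2.55 prior degrees of freedom, and no covariate. Unadjusted p was below 0.05 for 8784 genes. Files were read with the data.table package, version 1.17.8, and figures drawn with matplotlib 3.10.9. P-values set the difference between the groups against the spread between arrays within a group. Whether this is spread between single animals is not stated in the labels. The number of arrays limits precision.

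Replicate numbers are shared by the groups. Deviations of same-numbered arrays correlated at 0, 0.04, 0 and 0.09. These values gave no sign of pairing, but differently numbered arrays were not compared, so they cannot exclude it. Alternatives changed background correction, scaling, source, filter, choice of probe, variance model and the arrays used; fits of each probe on its own were chosen after seeing the data. Named genes are all members and, per neighbouring list, up to 2 called genes with the largest difference in each direction, 1 of which is not reported here. Members and lists were chosen with earlier results of these data known. Scd4, Ctsb, the sex-linked genes and overlapping genes were named after their values were seen.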

Additional observations from a re-analysis of the deposited data

Results flagged for a closer look

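In 3 of the 62 sets of 4 arrays examined (31 genes in each group), the end array lay far from the others by Dixon's criterion, about the 1 in 20 that chance gives. Fdft1 had a log2 signal of 2.46 on basal 4, with the nearest basal array at 3.58. Nsdhl had -0.41 on injured 3, with the nearest injured array at -0.69. Acly had -0.56 on basal 3, with the nearest basal array at 0.12.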

How the results depend on the processing

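Of 14 called synthesis genes, Acat2, Insig1, Scap and Scd1 kept direction and call under all 22 alternatives. The count called higher was 9 with all arrays, 13 without basal 1 and 2 together, and 6 to 10 with 1 array left out. The count called lower was 8 with quantile normalization, 3 in the authors' deposited table, 3 with injured 1 alone, and 5 to 8 with 1 array left out. Over all genes tested, 756 were higher and 992 lower with injured 1 alone, and 764 were lower in the authors' deposited table, where 81.1% of calls were higher, against 58.9% with all arrays and 43.2% with injured 1 alone. The sterol median was 0.93 in the authors' deposited table (all genes 0.47), -0.15 with probes averaged and 0.57 without basal 1 and 2. The fatty acid median was 0.10 with quantile normalization, 0.10 with normexp and quantile normalization, 0.92 in the authors' deposited table and 0.13 with probes averaged. The sign turned in the authors' deposited table for Hmgcs1 (0.09), Mvk (0.03), Idi1 (0.59), Cyp51 (0.29), Tm7sf2 (0.09), Sc4mol (0.37), Nsdhl (0.75), Sc5d (-0.17), Srebf2 (0.77), Cox10 (-0.39) and Pcyt1a (0.54). It turned with probes averaged for Fdft1 (-0.89), Hsd17b7 (-0.15) and Fads2 (-0.31), and on another probe for Fdft1 (-2.27), Hsd17b7 (-0.51), Srebf2 (0.01), Acaca (-0.41) and Fads2 (-0.78). It also turned for Elovl5 with quantile normalization (-0.11) and with normexp and quantile normalization (-0.04), for Nsdhl without basal 1 and 2 (0.07), for Srebf1 (-0.10), Elovl5 (-0.08) and Fads2 (-0.34) with injured 1 alone, and for Fads2 without injured 3 (-0.01). The causes were not tested. Fasn fell by 0.36 and was not called with normexp and quantile normalization (adjusted p = 0.0513), and in the authors' deposited table Insig2 fell by 0.95 and missed the threshold (adjusted p = 0.0634). Fasn and Cyp51 had no value when probes had to be above background on all arrays. Slide as a block could not be fitted, since each slide holds 1 group. With the replicate number as a block, 7 synthesis genes were called higher and 5 lower; Ebp joined (0.64, adjusted p = 0.036) and Acaca, Elovl6 and Fads1 dropped out. Dim probes such as those of Lss, Cyp51 and Fasn limit what can be said of those genes.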
